A study of Mus musculus with 9 samples.

Results

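The subunits of the respiratory chain that are encoded in the nucleus were followed through 9 RNA-seq libraries of mouse fetal liver erythroid cells. Members were taken by gene symbol, as all genes named for NADH dehydrogenase (complex I), succinate dehydrogenase (complex II), the cytochrome bc1 complex (complex III), cytochrome c oxidase (complex IV) and ATP synthase (complex V). Assembly factors, pseudogenes and Ndufa4l2 were left out, and so was Ndufab1, whose symbol the rule does not match. Of several transcript records of a symbol only that of the highest mean was kept. This gave 84 genes of 19840 names in the files, of which 36 belonged to complex I, 4 to complex II, 9 to complex III, 18 to complex IV and 17 to complex V. Low genes were filtered at a mean of 1 normalised RPKM (reads per kilobase and per M (mega) reads, scaled as given below) over the cultured libraries. The filter was passed by 78 members, and the 6 others (Cox4i2, Cox6a2, Cox7a1, Cox7b2, Cox8b and Cox8c) were all isoforms of complex IV.

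The respiratory chain sits in the inner mitochondrial membrane. Complexes I and II pass electrons from NADH and succinate to ubiquinone, complex III passes them on to cytochrome c, and complex IV passes them to oxygen. Complexes I, III and IV pump protons, and ATP synthase uses the proton gradient to make ATP. All complexes except complex II also hold subunits encoded in mitochondrial DNA, which are not members here. Erythroid progenitors depend on mitochondria for heme synthesis as well as for energy, and red cells lose their mitochondria at the end of maturation.

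All cells came from C57BL/6 embryos at day 13.5 to 14.5, and every condition was a single library. The 3 fresh libraries were burst-forming erythroid progenitors (BFU-E), the later colony-forming progenitors (CFU-E) and Ter119+ erythroblasts. Both progenitor sorts took Kit-positive cells without Ter119, CD34, CD41, CD16/32 and other lineage markers, the 10% lowest in CD71 for BFU-E and the 20% highest in CD71 for CFU-E, and erythroblasts were Ter119-positive and Kit-negative. The 6 cultured libraries were BFU-E sorted by low CD71 (the CD71 sort, with 2 libraries) or by both low CD71 and low CD24a (the CD71/CD24a sort, with 4 libraries). All were first cultured without serum for 4 h, with erythropoietin at 2 U/mL, stem cell factor at 100 ng/mL and IGF-1 at 40 ng/mL, and then for another 4 h with an addition. The CD71 sort received 100 nM dexamethasone (Dex, a synthetic glucocorticoid) or water. The CD71/CD24a sort received Dex, water, DMOG at 333 µM (dimethyloxalylglycine, which blocks the hydroxylases through which oxygen leads HIF to degradation) or Dex+DMOG. The labels do not say how many embryos went into a library.

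Depth recovered from the steps between low values ran from 11.85 to 52.75 M reads, lowest in the CD71 sort and highest in the DMOG-treated libraries. The summed level of 9 erythroid markers was 502 in BFU-E, 1039 in CFU-E and 210563 in Ter119+ erythroblasts, and that of 4 progenitor markers was 491, 150.1 and 7.0. Of 12 neutrophil and mast cell markers, 9 were at 1 or more in the Ter119+ library, with a summed level of 205, against 100.2 in BFU-E and 4.87 in CFU-E. Macrophage markers summed to 40.3 in the Ter119+ library, to 6.91 in BFU-E and to 1.53 in CFU-E. In the Ter119+ library 39.1% of the summed RPKM was globin, and all levels below were divided by 1 factor per library (0.419 for Ter119+ erythroblasts, 1.02 to 1.18 for the others).

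Respiratory chain genes were among the more abundant transcripts of every library. The median member that passed the filter stood at 101 normalised RPKM in BFU-E, 104 in CFU-E and 97.3 in Ter119+ erythroblasts, against 13.5, 12.3 and 9.94 for the median of all 9535 genes tested. In the cultured libraries the member median lay between 77.5 and 92.1. The 84 members together took 3.61% of the summed RPKM in BFU-E, 3.93% in CFU-E, 1.52% in Ter119+ erythroblasts and 3.0% to 3.43% in culture. With globin left out of the sums the shares of the fresh libraries were 3.61%, 3.94% and 2.46%. Within a library the members spanned a wide range, and the highest stood 152-fold above the lowest even in the CD71/CD24a sort with DMOG, where the range was narrowest.

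**Figure D1:**
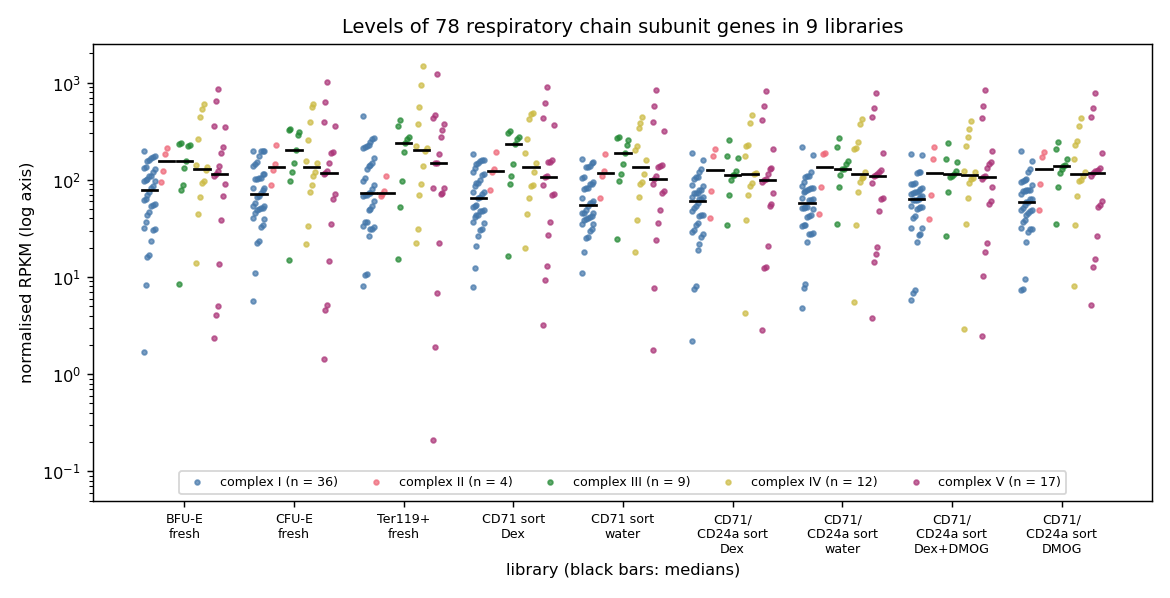
Normalised RPKM of the 78 members that passed the filter in each of the 9 libraries, on a log axis. Each point is 1 gene, colours mark the complex and black bars are medians; the complex III median is 158 in fresh BFU-E and 201 in fresh CFU-E, and lies between 112 and 140.1 in the 4 CD71/CD24a sort libraries.

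The catalytic F1 part of ATP synthase held the most abundant member in 8 of the 9 libraries. Atp5b, its beta subunit with the catalytic sites, was 850.2 in BFU-E, 1013 in CFU-E and 1235 in Ter119+ erythroblasts, and 905 with Dex and 845 with water in the CD71 sort, and 813 with Dex, 778 with water, 843 with Dex+DMOG and 783 with DMOG in the CD71/CD24a sort. Its partner Atp5a1, the alpha subunit, was 647 in BFU-E, 629 in CFU-E and 429.6 in Ter119+ erythroblasts, and between 548 and 618 in culture. Atp5b was thus higher than Atp5a1 in every library. Cox6a1, the broadly expressed form of a small complex IV subunit, was 601 in BFU-E, 559.5 in CFU-E and 1471 in Ter119+ erythroblasts, and 478 with Dex and 387 with water in the CD71 sort, and 381 with Dex, 377 with water, 333 with Dex+DMOG and 355 with DMOG in the CD71/CD24a sort. It was the most abundant member in Ter119+ erythroblasts. Cox4i1, the broadly expressed form of subunit 4, was 531 in BFU-E, 599 in CFU-E and 954 in Ter119+ erythroblasts, and it led complex IV in each cultured library, at 407 to 491. In complex II Sdhd, a membrane anchor, was 213 in BFU-E, 228 in CFU-E and 67.6 in Ter119+ erythroblasts, and Sdhc, the other anchor, was 95.5 in BFU-E, 87.4 in CFU-E and 71.1 in Ter119+ erythroblasts. Cyc1, the heme-carrying cytochrome c1, had the highest mean of complex III and was 234 in BFU-E, 313 in CFU-E and 275 in Ter119+ erythroblasts. In complex I the highest mean belonged to Ndufa4, at 169 in BFU-E, 151 in CFU-E and 225 in Ter119+ erythroblasts. Ndufa4 carries a complex I name and was placed there by the rule, but it is now known as a subunit of complex IV.

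The members with the lowest levels were also those that share sequence with other genes. Sharing is the percent of 32-base words of a transcript that also occur in the transcripts of another gene or in a pseudogene. Of the 78 members, 37 shared 10% or more of their words and had a median level of 53.9, and the 41 others had a median of 112. All 7 passed members with a mean level under 20 (Atp5g1, Atp5g2, Atp5l, Cox7c, Ndufa11, Ndufb4 and Ndufs5) were among the sharing ones, with 14.7% to 87.4% of their words shared. How the authors counted reads with several matches is not given in the sources used here, so the levels of these members are uncertain, and so are comparisons that lead with them. Cytochrome c itself, Cycs, which is no member, was listed at 0.133 to 1.66 in the 9 libraries. Exons of 24 members overlap a gene on the opposite strand, among them Cox4i1 (with Emc8), Ndufs1 (with Eef1b2), Atp5d (with Cbarp), Ndufb5 (with Mrpl47) and Ndufa13 (with Tssk6), and reads of such pairs cannot be told apart where strand was not used.

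Several complex IV subunits and the c subunit of ATP synthase exist as isoforms from separate genes. The forms known from heart and skeletal muscle were near 0. Cox6a2 reached at most 0.448, Cox8b at most 0.254 and Cox7a1 at most 2.33 (CD71/CD24a sort with Dex), against 333 to 1471 for Cox6a1, 212 to 558 for Cox8a and 97.5 to 197 for Cox7a2. Cox7b2 was at 0 in all 9 libraries and Cox8c in 8 of them. For Cox7b2 a count of 3 reads would correspond to between 0.0904 (CD71/CD24a sort with Dex+DMOG) and 0.759 (Ter119+ erythroblasts), and lower levels were not detectable. Cox6b2, known as the testis form of subunit 6b, was the exception. It was 126 in BFU-E, 109 in CFU-E and 225 in Ter119+ erythroblasts, and 65.6 with Dex and 65.8 with water in the CD71 sort, and 69.4 with Dex, 75 with water, 64.3 with Dex+DMOG and 68.6 with DMOG in the CD71/CD24a sort, while Cox6b1 was between 224 and 378. Cox6b2 thus made up 19.8% to 37.3% of the sum of Cox6b1 and Cox6b2, and it shared 0% of its words with other genes. Among the genes for the c subunit, which encode the same mature protein, Atp5g3 carried nearly all of the signal. It was 359 in BFU-E, 392 in CFU-E and 278 in Ter119+ erythroblasts and 391 to 446 in culture. Atp5g1 made up 0.675% to 5.78% of the sum with Atp5g3, and Atp5g2 0.0755% to 1.14%.

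The promoters are shown because many respiratory chain genes are known targets of NRF1 and of the ETS factor GABP. RefSeq promoters of GRCm38.p6, from 250 bases before to 50 after each start, were found for 68 of the 84 members, 73 promoters in all. The letters GCATGCG, the core of the NRF1 motif, stood on either strand in 11 of the 73 (15.1%), against 3.58% of 32851 promoters. The letters CCGGAAG, an ETS core, stood in 17 (23.3%), against 8.86%, and both stood in 6 (8.22%), against 0.621%. A match of letters is a description and not a site that was shown to be bound. GCATGCG overlaps its own reverse complement CGCATGC, so 1 stretch can match on both strands and was counted once per promoter. The windows below belong to members whose levels are described further on, with the motif in capitals and each sequence written on the strand of its gene, where CTTCCGG is CCGGAAG of the other strand.
Cox6a1, NRF1 core, chr5:115349082-115349148, minus strand: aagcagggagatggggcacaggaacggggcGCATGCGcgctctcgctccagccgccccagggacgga
Atp5j, NRF1 core, chr16:84835086-84835152, minus strand: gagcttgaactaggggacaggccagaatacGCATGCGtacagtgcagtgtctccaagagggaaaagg
Atp5l, NRF1 core, chr9:44920946-44920992, minus strand: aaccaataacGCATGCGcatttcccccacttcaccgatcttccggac
Sdhb, NRF1 core, chr4:140961187-140961253, plus strand: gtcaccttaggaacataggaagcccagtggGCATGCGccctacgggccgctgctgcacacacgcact
Sdhd, ETS core, chr9:50603859-50603925, minus strand: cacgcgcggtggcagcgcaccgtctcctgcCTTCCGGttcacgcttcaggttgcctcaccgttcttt
Uqcr11, ETS core, chr10:80406851-80406917, minus strand: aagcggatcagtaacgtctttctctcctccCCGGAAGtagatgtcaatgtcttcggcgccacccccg
Ndufb7, ETS core, chr8:83566708-83566757, plus strand: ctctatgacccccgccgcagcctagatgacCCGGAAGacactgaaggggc
Counted from the start of transcription, the motif begins at base -160 in Cox6a1, -146 in Atp5j, -240 in Atp5l, -54 in Sdhb, -46 in Sdhd, -66 in Uqcr11 and -20 in Ndufb7. Only the motif named in a line is in capitals. The Atp5l window also holds an ETS core of the other strand, from base -212, in small letters. Members with a core did not share a direction: at the step from CFU-E to Ter119+ erythroblasts Cox6a1 and Ndufb7 stood at least 2-fold higher, and Sdhd at least 2-fold lower.

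The first comparison asked how the subunits differ between the early and the late progenitor. Most differed little between fresh BFU-E and fresh CFU-E, and complex III was the one complex whose members stood higher nearly throughout. With 1 library each there was no test, and members were described by a size rule of 2-fold in log2(normalised RPKM + 1), a scale on which low genes appear to change less than they do. At least 2-fold higher in CFU-E was 1 of 78 members, against 3.32% of all genes compared, and at least 2-fold lower were 0 of 78, against 12.3%. The member median was 0.05 on the log2 scale, against -0.08 for all genes. A difference between bulk libraries cannot tell fewer cells of a type from less RNA per cell.

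In complex III, 8 of 9 members stood higher in CFU-E. At least 1.25-fold higher, a limit chosen after the values were seen, were 7 of the 9, against 18.9% of all genes, and the median corresponded to 1.36-fold. Uqcrq, which binds close to cytochrome b, was 241 and 333 (BFU-E, then CFU-E), a ratio of 1.38 with an exact 95% interval of 1.34 to 1.42. Such intervals come from recovered reads and cover counting error only. Uqcr10, a small supernumerary subunit, was 221 and 323, a ratio of 1.46 (1.38 to 1.55). Uqcr11, another small subunit, was 133 and 201, a ratio of 1.51 (1.40 to 1.62). Uqcrb, a small matrix-side subunit, had the largest ratio of the complex, at 8.42 and 15.0, 1.79 (1.38 to 2.31), and 57.1% of its words are shared. Each of these intervals lies above 1. Uqcrfs1, the Rieske iron-sulfur protein, was 87.4 and 119.5, Cyc1 was 234 and 313, and the core proteins Uqcrc1 and Uqcrc2 were 229.7 and 291, and 79.1 and 97.1. Uqcrh, the hinge protein that docks cytochrome c, was the one member lower, at 158 and 149.6. The other complexes had medians of 0.05 (I), -0.05 (II), 0.03 (IV) and 0.01 (V).

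Outside complex III the members furthest apart were spread over the complexes. Ndufb4, an accessory subunit of the complex I membrane arm, was 1.69 and 5.70, the one member past 2-fold, and 38.3% of its words are shared. Cox7c, a small complex IV subunit, was 14.0 and 22.1, a ratio of 1.58 (1.29 to 1.93), with 54.7% of its words shared. Ndufa5 was 23.3 and 40.3, and Ndufs1, the largest core subunit of complex I, was 30.8 and 51.2, a ratio of 1.66 (1.57 to 1.77). Lower in CFU-E were Ndufa1, a small accessory subunit, at 81.5 and 54.2, a ratio of 0.665 (0.594 to 0.744), Atp5g2, Ndufb11, Cox7a2l and Sdha, the flavin-carrying catalytic subunit of complex II, at 186 and 146. Of the 7 core subunits of complex I that the nucleus encodes, 5 stood higher in CFU-E and 2 lower.

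**Figure D2:**
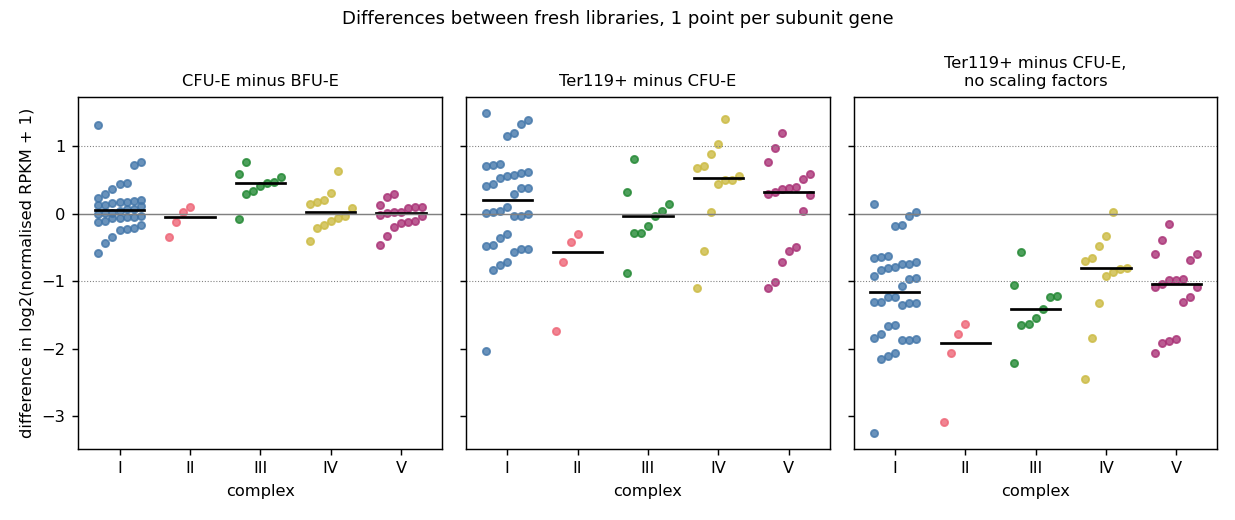
Difference in log2(normalised RPKM + 1) of each member between fresh libraries, by complex, with medians as black bars and the 2-fold rule as dotted lines. In the left panel 8 of 9 complex III genes lie above 0. In the middle panel all 4 complex II genes lie below 0 and 10 of 12 complex IV genes above it. In the right panel, without the factors, 75 of 78 members lie below 0, against 7646 of all 9318 genes compared.

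At the step from CFU-E to Ter119+ erythroblasts the members were no longer uniform. Complex II stood lower in all of its 4 members, complex IV stood higher in 10 of 12, and complexes I and V held members on both sides. Transcript length, given below, also differs between the complexes. After scaling, 8 of 78 members were at least 2-fold higher in Ter119+ erythroblasts and 5 at least 2-fold lower, against 22.6% and 28.8% of all genes compared. Their median was 0.28 on the log2 scale, against -0.21 for all genes. These directions depend on the scaling. Without the factors, which set the globin-rich Ter119+ library against genes present in all libraries, the member median was -1.08 against -1.30 for all genes. At least 2-fold higher were then 0 of 78 members and 43 were lower, against 788 higher and 5618 lower of all 9318 genes compared. The members stood above the median of all genes under both. Markers of neutrophils and macrophages were higher in the Ter119+ library, as given above, and their part in these differences was not tested.

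Complex II had the lowest median of the 5, at -0.57. Sdhd stood furthest down, at 228 and 67.6, a ratio of 0.296 (0.272 to 0.322). Sdhb, the iron-sulfur subunit, was 126 and 76.6, Sdha was 146 and 109, and Sdhc was 87.4 and 71.1. In complex II 1 of the 4 members was at least 2-fold lower, against 28.8% of all genes. Complex II is the one complex that also works in the citric acid cycle. Of 17 genes of that cycle compared 8 were at least 2-fold lower and 1 higher, with a median of -0.55. The other lists of mitochondrial genes given below for this step had medians further below 0. A link of complex II with the cycle was not tested.

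Complex IV had the highest median, at 0.53. Cox6a1 was 559.5 in CFU-E and 1471 in Ter119+ erythroblasts, a ratio of 2.63 (2.54 to 2.72). Cox6b2 was 109 and 225, Cox4i1 was 599 and 954, and Cox8a, the smallest subunit, was 394 and 558. The exceptions were Cox5a, a matrix-side subunit, at 149.7 and 69.0, and Cox7a2l, which is known for joining complexes III and IV, at 33.3 and 22.3. Cox5b, which lies next to Cox5a on the matrix side, was 156 and 212. Cox5a and Cox5b thus stood on opposite sides, but they share 46.1% and 32.1% of their words with other genes. Cox6a1 shares 23.0%.

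In complex I the members stood on both sides, and the ranges of its core and accessory subunits overlapped. The 7 core subunits, which carry the redox centres or form their scaffold, had a median of -0.47 with 2 above 0, and the 29 accessory subunits had a median of 0.39 with 20 above 0. The core members ran from -0.77 to 0.53 and the accessory ones from -2.04 to 1.49. This split was made after the values were seen, and its difference was not tested. Ndufb11 was 51.8 and 148, a ratio of 2.85 (2.62 to 3.11), Ndufa3 was 81.8 and 216, Ndufa1 was 54.2 and 137, and Ndufb7 was 199 and 458. These are small accessory subunits of the membrane arm, and each stood at least 2-fold higher, as did Ndufa11. Ndufb11 and Ndufa11 share 28.6% and 25.6% of their words with other genes. Against the higher members stood Ndufb5, of the same arm, at 45.6 and 10.4, the lowest difference of all members at -2.04 on the log2 scale. It shares 17.9% of its words. Ndufv1, the core subunit that binds NADH, was the core member that stood furthest up, at 146 and 211.

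In complex V, Atp5h, of the peripheral stalk, was 35.0 and 81.6, with 60.4% of its words shared. Atp5j2, of the membrane part, was 193 and 379, with 10.4% shared. Atp5a1 was 629 and 429.6 while Atp5b was 1013 and 1235, so that the 2 subunits that alternate in the F1 ring lay on opposite sides. Atp5g1 and Atp5g2, the minor c subunit genes, were at least 2-fold lower, both from levels under 6. In complex III, where 4 members lay above 0 and 5 below it, the median was -0.04.

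Transcript length went with the difference at this step. Over the 78 members Pearson's r between log2 length and the difference was -0.48, and over 9318 genes with a length it was 0.04. This is a correlation across genes of the same 2 libraries, and genes are not independent replicates. Members are short as a class. Their median length in GENCODE M21 was 720.5 bases against 2845.5 for all tested genes, and 58 of 84 were under 1000 bases against 6.78% of tested genes. Of the members that passed the filter, those of complex II ran from 1142 (Sdhb) to 3171 bases (Sdhc). Those of complex IV ran from 503 (Cox6c) to 1076 (Cox7a2l). In complex I the core subunits ran from 758 (Ndufs7) to 2661 (Ndufs1) and the accessory ones from 315 (Ndufc1) to 2020 (Ndufa10). The part of length in the differences between complexes, and between core and accessory subunits, was not tested. After each library was corrected for a smooth function of GC content and length, the member median was 0.11. The libraries were made from 300 bp gel bands, and the part of fragment size in this relation was not tested.

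**Figure D3:**
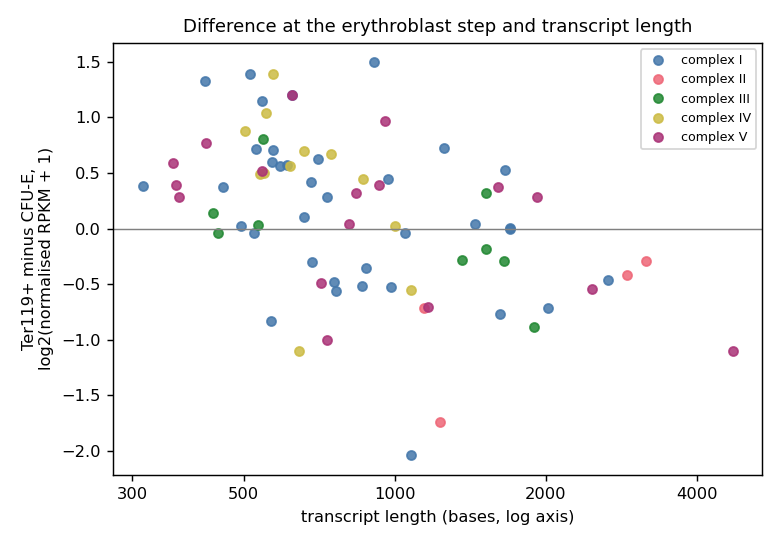
Difference of each member between Ter119+ erythroblasts and CFU-E on the scale of log2(normalised RPKM + 1) against transcript length on a log axis, with colours for the complexes. Short members such as Cox6a1 lie mostly above 0, and Pearson's r over the 78 members is -0.48.

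Other lists of nuclear genes of the mitochondrion had medians below 0 at this step. Of 77 mitochondrial ribosomal protein genes compared, 34 were at least 2-fold lower in Ter119+ erythroblasts than in CFU-E and 0 higher, with a median of -0.93. Of 42 assembly factor genes, 20 were lower and 2 higher, with a median of -0.91. Of 16 genes of mitochondrial biogenesis and mitochondrial DNA expression, 9 were lower and 2 higher, with a median of -1.07. Of 7 genes compared from a list of carriers and pores that also holds Ndufab1, 5 were lower and 0 higher. Among the 5 lower were the ADP/ATP carrier Slc25a4, at 83.7 and 7.03, and the outer membrane pore Vdac1, at 177 and 49.5. The background shares of 28.8% lower and 22.6% higher apply to each of these counts, and the differences between lists were not tested.

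From fresh BFU-E to Ter119+ erythroblasts, which shares a library with each comparison above, 10 of 78 members were at least 2-fold higher and 4 lower, against 21.2% and 35.8% of all genes. The higher ones were Ndufb4, Ndufa11, Ndufb7, Cox6a1, Ndufa3, Cox7c, Atp5h, Ndufb11, Cox6c and Cox7a2, and the lower ones were Ndufb5, Sdhd, Atp5g2 and Cox5a. Over all members the median was 0.38 with the factors and -0.94 without them, where 0 were 2-fold higher and 36 lower. Of all 10080 genes compared without the factors, 904 were 2-fold higher and 6246 lower. Complex II had a median of -0.73 with all 4 members lower, and in it no member was higher under either scaling.

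The next comparison set fresh BFU-E against BFU-E of the CD71 sort cultured with water. At least 2-fold higher in culture were 5 of 78 members and 0 were at least 2-fold lower, against 6.27% and 9.06% of all genes. The 5 were Atp5g1 (4.05 and 24.0), Ndufb4 (1.69 and 10.9), Ndufs5 (8.32 and 25.7), Uqcrb (8.42 and 24.8) and Atp5md (13.6 and 36.1). All 5 share at least 14.7% of their words with other genes. The median of the members was -0.17, against -0.08 for all genes, and the complex III median was 0.29. The members that stood furthest down were Ndufb11 (70.0 and 35.1) and Cox6b2 (126 and 65.8), followed by Ndufb2, Ndufa7 and Ndufa3, accessory subunits of complex I, at -0.84, -0.79 and -0.73 on the log2 scale. From BFU-E to CD71 sort water the summed level of 9 erythroid markers went from 502 to 1703 (5 at least 2-fold higher), that of 4 progenitor markers from 491 to 146 (4 lower), that of 12 neutrophil and mast cell markers from 100.2 to 27.0 (Mpo and Prtn3 lower), and that of 6 hepatocyte markers from 25.1 to 2.83 (4 lower). Their part in the member differences was not tested. The fresh and cultured libraries differ also in depth, and culture cannot be told apart from the library.

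The largest differences in the cultured libraries lay between the 2 sorts. The fit was limma's on 6 libraries, with terms for sort, Dex and DMOG, over 9535 genes with Benjamini-Hochberg adjustment, and calls are at an adjusted p under 0.05. Of 78 members 17 were higher in the CD71/CD24a sort and 31 lower, which is 61.5%, against 54.2% of all genes tested (29.1% higher and 25.0% lower). Without the Dex library of the CD71/CD24a sort the counts were 5 higher and 18 lower, and without its water library 7 were higher. Shares of all genes are not given for these fits with a library left out. The member median was -0.19, against 0.04 for all genes. The sorts also differ in depth, in how the files code a value of 0 and in the pattern along GC content given below, so that sort and library batch cannot be told apart. Cells of each sort were split between its additions, so the libraries of a sort are not replicates of that sort. SEs and p-values of this comparison measure the spread between libraries within a sort, and not the spread between sorts. The 12 neutrophil and mast cell markers summed to 26.7 and 27.0 in the CD71 sort and to 5.47 to 6.51 in the CD71/CD24a sort. The 9 erythroid markers summed to 1015 with Dex and 1703 with water in the CD71 sort and to 439 to 662 in the CD71/CD24a sort. The 6 hepatocyte markers ran the other way, with sums of 5.34 and 2.83 in the CD71 sort and 10.1 to 13.0 in the CD71/CD24a sort, and limma called Alb and Afp higher. The part of these markers in the sort differences was not tested.

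The members that were lower came from each complex. Atp5d, the delta subunit of F1, was 365 with Dex and 319.9 with water in the CD71 sort, and 95 with Dex, 113 with water, 103 with Dex+DMOG and 126 with DMOG in the CD71/CD24a sort. Its 2 levels in the CD71 sort were both above the 4 in the CD71/CD24a sort, and the log2 difference was -1.71 (SE 0.13, limma adjusted p 0.0013), or -1.07 after the correction for GC content and length given below. Uqcrq was 306 with Dex and 255 with water in the CD71 sort, and 99.0 with Dex, 128 with water, 106 with Dex+DMOG and 129 with DMOG in the CD71/CD24a sort, a log2 difference of -1.30 (SE 0.16, limma adjusted p 0.0022). Uqcrc1 was 261 with Dex and 226 with water in the CD71 sort, and 124 with Dex, 129.6 with water, 114 with Dex+DMOG and 140.1 with DMOG in the CD71/CD24a sort, a log2 difference of -0.93 (SE 0.13, limma adjusted p 0.0028). In both the sorts did not overlap. For these members and for Atp5d, all named by their calls, this is no further support. Ndufs8 and Ndufs7, neighbouring core subunits that hold the last iron-sulfur clusters before ubiquinone, fell together. Ndufs8 was 114 with Dex and 91.1 with water in the CD71 sort, and 43.6 with Dex, 51.4 with water, 51.9 with Dex+DMOG and 54.6 with DMOG in the CD71/CD24a sort, and Ndufs7 was 160.3 with Dex and 139.5 with water in the CD71 sort, and 63.0 with Dex, 79.1 with water, 61.4 with Dex+DMOG and 79.1 with DMOG in the CD71/CD24a sort, with log2 differences of -1.09 and -1.07 (-0.68 and -0.44 after the correction). Cox7c, a small subunit of complex IV, had the largest difference at -1.76 (SE 0.28), from 19.7 with Dex and 18.1 with water to 4.29 with Dex, 5.55 with water, 2.93 with Dex+DMOG and 7.99 with DMOG, but 54.7% of its words are shared. The other members among the 10 with the largest differences were Ndufb4 (-1.25), Ndufa11 (-1.25), Ndufa7 (-1.03) and Ndufs5 (-1.03). In complex II Sdhc (-0.75) and Sdhb (-0.51) were lower.

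The members that were higher were smaller in their differences. Atp5j, of the peripheral stalk, was 69.3 with Dex and 76.3 with water in the CD71 sort, and 130.3 with Dex, 119 with water, 144 with Dex+DMOG and 122 with DMOG in the CD71/CD24a sort, a log2 difference of 0.77 (SE 0.11, limma adjusted p 0.0029). Sdha was 129 with Dex and 124 with water in the CD71 sort, and 209.9 with Dex, 189 with water, 219 with Dex+DMOG and 170.2 with DMOG in the CD71/CD24a sort, a log2 difference of 0.65 (SE 0.10, limma adjusted p 0.0037). Sdha therefore rose where Sdhb and Sdhc fell, although Sdhb lost its call after the correction for GC content and length (-0.27, limma adjusted p 0.057). Ndufs1 was 41.8 with Dex and 45 with water in the CD71 sort, and 73.1 with Dex, 61.8 with water, 67.8 with Dex+DMOG and 59.2 with DMOG in the CD71/CD24a sort, a log2 difference of 0.62 (SE 0.11, limma adjusted p 0.0050). Ndufv2, its neighbour in the NADH-binding module of complex I, was 47.4 with Dex and 45.3 with water in the CD71 sort, and 78.9 with Dex, 62.4 with water, 73.6 with Dex+DMOG and 59.0 with DMOG in the CD71/CD24a sort, a log2 difference of 0.59, which the correction reduced to 0.09 (limma adjusted p 0.29). Atp5l, Uqcrb, Atp5h, Ndufa1, Ndufa4, Cox6c and Uqcrc2 were among the others. Ndufv1, Cox4i1, Cox6a1, Cox7a2, Cox5b, Atp5a1, Atp5b, Cyc1 and Sdhd were not called in either direction before the correction.

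Base composition went with these differences. Over the 78 members Pearson's r between the sort difference and the GC content of the transcript was -0.47, and over 9318 genes it was -0.63. Of the 31 lower members 22 lay at or above the member median of 51.7% GC, and of the 17 higher members 2 did. Atp5d, the lowest of the members under 10% sharing, has 61.1% GC, and Ndufs1 has 45.1%. After correction of each library for GC content and length, 16 members were higher and 26 lower, and 11 and 23 of these had been called in the same direction before. The share of all genes called after the correction is not given here, so these counts have no background beside them. Higher calls lost with the correction were Ndufv2, Ndufa4 (0.20, limma adjusted p 0.16), Ndufs4, Ndufb5, Atp5mpl and Uqcrc2, which turned to -0.12. Gained were Cox4i1 (0.37, limma adjusted p 0.017), Cox6a1 (0.37, limma adjusted p 0.019), Ndufv1 (0.21, limma adjusted p 0.037), Cox6b2 and Ndufb10. Lower calls lost were Ndufa13, Ndufb7, Ndufb9, Uqcr10, Uqcr11, Sdhb, Atp5k and Atp5o.

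**Figure D4:**
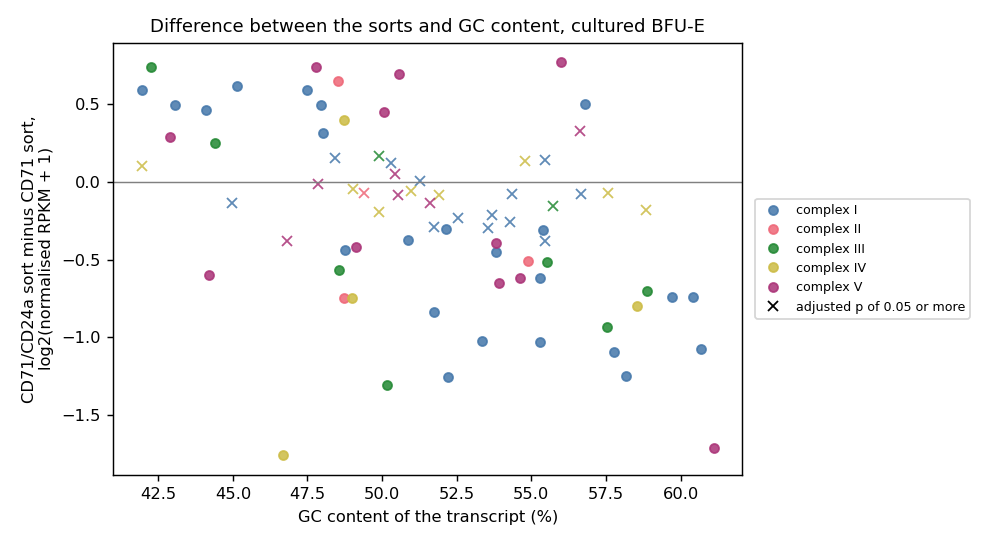
Log2 difference between the CD71/CD24a sort and the CD71 sort for each of the 78 members against the GC content of its transcript, with circles for members called by limma and crosses for the others. Members of low GC content lie mostly above 0 and those of high GC content below it, with Pearson's r of -0.47.

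Ndufa4l2, an inducible relative of Ndufa4 that the membership rule leaves out, differed more than any member, at 7.98 and 5.55 in the CD71 sort and 0.326 to 0.767 in the CD71/CD24a sort, a log2 difference of -2.32 (SE 0.21, limma adjusted p 0.0013). In the fresh libraries it was 24.9 in BFU-E, 28.5 in CFU-E and 8.06 in Ter119+ erythroblasts. Of 42 assembly factor genes 10 were higher and 10 lower between the sorts, and of 78 mitochondrial ribosomal protein genes 17 were higher and 38 lower. The shares over all genes tested were 29.1% higher and 25.0% lower.

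The question of the cultures was how Dex and DMOG act on BFU-E, and for the subunits no call was made for Dex. Over the 3 pairs of libraries with and without Dex, limma called 0 of 78 members, against 2.02% of all genes (1.39% higher and 0.629% lower). An unadjusted p under 0.05 was found for 13 of the 78 members and for 1540 of all 9535 genes. The member median was 0.00, against -0.02 for all genes. The lowest adjusted p of a member was 0.12, for Ndufb4 with a log2 difference of -0.52 (SE 0.12), named here after its value was seen. Ndufb4 was 7.80 with Dex and 10.9 with water in the CD71 sort, and 2.17 with Dex, 4.78 with water, 5.83 with Dex+DMOG and 7.26 with DMOG in the CD71/CD24a sort, lower with Dex in all 3 pairs. Assembly factors, citric acid cycle genes and mitochondrial ribosomal proteins also had 0 calls, of 42, 17 and 78 tested.

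The pairs differed among themselves. In the CD71 sort 57 of 78 members were higher with Dex, with a median of 0.13, against 4889 of all 9535 genes and a median of 0.01. In the CD71/CD24a sort 34 members were higher without DMOG and 33 with it, with medians of -0.03 and -0.05. Of all 9535 genes 4372 and 4552 were higher in these pairs, with medians of -0.02 and -0.01. Pearson's r of the Dex difference with GC content over the members was 0.40 in the CD71 sort (0.35 over all genes), and -0.19 and -0.21 in the others (-0.02 and -0.20 over all genes). The direction along GC content was therefore not the same in the CD71 sort as in the other pairs. The product of Dex and sort, added to the fit after seeing the data, was called by limma for 13 of 78 members, against 6.03% of all genes, with 3 above 0 (3.48% of all genes) and 10 below 0 (2.55%).

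**Figure D5:**
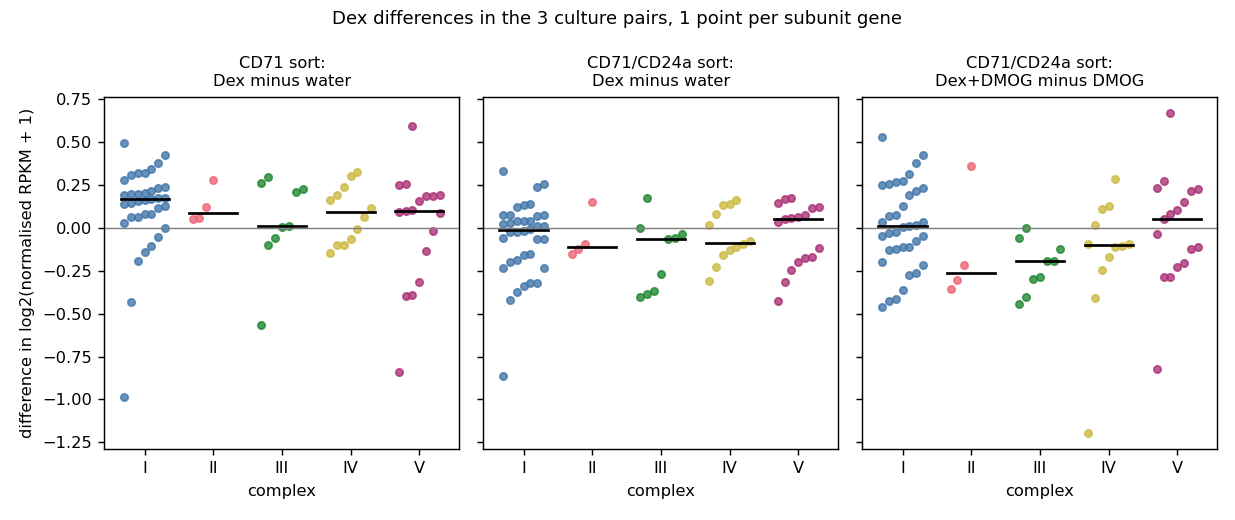
Difference with and without Dex in log2(normalised RPKM + 1) for each of the 78 members in the 3 culture pairs, by complex, with medians as black bars. In the CD71 sort 57 of 78 members lie above 0 (4889 of all 9535 genes), and in the pair with DMOG all 9 complex III members lie below 0 (4981 of all genes).

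Within the CD71/CD24a sort alone, a fit on its 4 libraries called 4 members higher and 15 lower with Dex, together 24.4%, against 12.2% of all genes. This fit has 1 residual degree of freedom and borrows its estimate of the spread from all genes. Uqcr10 was 166 with Dex, 219.6 with water, 153 with Dex+DMOG and 209 with DMOG, a log2 difference of -0.42 (SE 0.07, limma adjusted p 0.0028). Both libraries with Dex were below both without it, which is no further support, as Uqcr10 was named by its call. Uqcr11, Uqcrq and Uqcrfs1 of complex III were also called lower. In the CD71 sort these 4 had differences of 0.01 (Uqcr10), 0.29 (Uqcr11), 0.26 (Uqcrq) and -0.06 (Uqcrfs1). Ndufa13, an accessory subunit of complex I, was 21.8 with Dex, 27.5 with water, 22.6 with Dex+DMOG and 31.5 with DMOG, a log2 difference of -0.39 (SE 0.07, limma adjusted p 0.0040), and Ndufs7 was lower by a log2 difference of -0.34 (SE 0.07, limma adjusted p 0.0063). Ndufv2 was 78.9 with Dex, 62.4 with water, 73.6 with Dex+DMOG and 59.0 with DMOG, the other way, at 0.32 (SE 0.07, limma adjusted p 0.0081). Ndufa9, Ndufb6 and Atp5k were the other members called higher. After correction for GC content and length the same libraries gave 8 members higher and 12 lower, against 12.1% of all genes.

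In the fit of 6 libraries no member passed the threshold with DMOG. Limma called 0 of 78 members over the 2 pairs with and without DMOG, against 0.0210% of all genes. An unadjusted p under 0.05 was found for 7 of the 78 members and for 347 of all 9535 genes. The largest differences were in Ndufb4, at 0.81 (SE 0.15, limma adjusted p 0.45), and in Cox5b, at -0.42 (SE 0.10, limma adjusted p 0.81), both named after their values were seen. Cox5b was 176 with Dex, 207 with water, 124 with Dex+DMOG and 165 with DMOG, lower with DMOG in both pairs. Ndufb4 was 2.17 with Dex, 4.78 with water, 5.83 with Dex+DMOG and 7.26 with DMOG, higher with DMOG in both. A fit of the 4 CD71/CD24a libraries alone, which hold both DMOG pairs, called these 2 members, Ndufb4 higher (limma adjusted p 0.0054) and Cox5b lower (limma adjusted p 0.018), against 1.21% of all genes. Over the 6 libraries the median of the members was 0.02, and a p that misses the threshold does not show that DMOG had no effect. The DMOG and Dex pairs share their 4 libraries.

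Genes of the mitochondrion that are known targets of HIF were set beside the members. Of 12 compared, limma called 0 with DMOG in the fit of 6 libraries, against 0.0210% of all genes. Their median was 0.21, against 0.00 for all genes. Calls of these targets in the fit of the 4 CD71/CD24a libraries alone are not given here. Egln3, a HIF prolyl hydroxylase, was 5.65 with Dex, 1.48 with water, 35.6 with Dex+DMOG and 16.4 with DMOG, a log2 difference of 2.64 (SE 0.30, limma adjusted p 0.092). Pdk1, which keeps pyruvate out of the citric acid cycle, was 23.1, 22.5, 32.3 and 32.4 in the same order, a log2 difference of 0.49 (SE 0.08, limma adjusted p 0.35), and Bnip3, a mitophagy receptor, was 3.01, 2.65, 10.0 and 9.99. All 3 were higher with DMOG in both pairs without passing the threshold in the fit of 6 libraries. Cox4i2, the form of subunit 4 known as a hypoxia-linked isoform, was 0.432 with Dex, 0.381 with water, 0.469 with Dex+DMOG and 0.346 with DMOG, and Ndufa4l2 was 0.326 with Dex, 0.767 with water, 0.591 with Dex+DMOG and 0.655 with DMOG. Cox4i2 was under the filter and had no test, and Ndufa4l2 was not called (log2 difference 0.08, SE 0.21).

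The combination of Dex and DMOG was tested as an interaction. Limma called 0 of 78 members and 0 of all 9535 genes, which is 0%, and 5 members and 275 genes had an unadjusted p under 0.05. In complex III all 9 members had an interaction below 0, with a median of -0.14, against 4736 of all 9535 genes below 0 and a median of 0.00. The lowest adjusted p of a member was 0.58, for Cox7c at -1.10 (SE 0.24). This fit has 1 residual degree of freedom.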

How the data were processed

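The values are RPKM as deposited, reads scaled to transcript length in kilobases and to library size in M (mega) reads, which the authors computed for 23041 RefSeq transcript records in each of 9 files of paired-end mRNA-seq libraries. The submitters' processing notes name mm9. The aligner, the counting tool and the use of strand are not given in the sources used here. Files of the CD71/CD24a sort (4) hold 5954 to 7412 values of exactly 1 and 0 values of 0, so an exact 1 was read as 0 there. Symbols came from RefSeq (GRCm38.p6) for 22393 records and from GENCODE M21 for 118, and 530 had none. Each library was divided by the median ratio to the geometric mean over 6888 genes with no library under 1 RPKM. Depth came from the steps between low values, of which 66.9% to 69.9% were whole reads within 0.1, against 20% by chance. Cultured libraries were tested with limma 3.58.1 (R 4.3.3, empirical Bayes with a trend) on log2(normalised RPKM + 1) for 9535 genes with a mean of at least 1, in the model sort + Dex + DMOG with 2 residual degrees of freedom, and interactions were fitted separately. P-values measure the spread between single libraries, which may be technical. In the model sort + Dex + DMOG this spread is the departure from additive effects. It thus includes any difference of the Dex effect between the sorts or with and without DMOG. Per the labels' protocols the cells of each sort were split between its additions, so sort acts as the pairing in this fit. The comparison of the sorts itself therefore has no replicate of a sort. Fresh libraries have no replicates and no test, and ratios carry exact (Clopper-Pearson) 95% intervals of recovered reads. Members named were those called (at most the 10 largest), the 5 furthest up and down between fresh libraries with all past 2-fold where at most 10, the highest and lowest of each complex and a set of classical subunits, of which 1 is not reported here by name. The members and gene lists were chosen with earlier results of these data known. The fit was tested on simulated data. Alternatives were a pseudocount of 0.1, no filter, no factors, exact 1 kept, summed records, no trend, single libraries left out and, chosen after seeing the data, a correction for GC content and length, a product of Dex and sort, and both the correction and the 4 CD71/CD24a libraries alone.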

Additional observations from a re-analysis of the deposited data

Results flagged for a closer look

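The Dex difference of a member was not always the same in the 2 sorts, and the product of Dex and sort, a term added after seeing the data, was tested with limma over all genes. It was called for 13 of 78 members (3 above 0 and 10 below), against 6.03% of all genes (3.48% above and 2.55% below). An unadjusted p under 0.05 was found for 33 of the 78 members and for 2342 of all 9535 genes. A value below 0 means that the Dex difference was lower in the CD71/CD24a sort than in the CD71 sort. Below 0 were the ubiquinone-module core subunits Ndufs7 (-0.54) and Ndufs8 (-0.48), the complex I accessory subunits Ndufs6 (-0.62), Ndufa13 (-0.54) and Ndufa7 (-0.52), the complex III subunits Uqcrq (-0.59) and Uqcr11 (-0.58), the complex II anchor Sdhc (-0.49), and Atp5d (-0.45) and Atp5g2 (-1.16) of ATP synthase. Above 0 were Ndufs5 (0.94), Atp5g1 (0.60) and Atp5h (0.54). Ndufs5, Atp5g1, Atp5g2 and Atp5h share 46.8%, 14.7%, 87.4% and 60.4% of their words with other genes. The CD71 sort holds 1 pair of libraries, so these values rest on that pair. After correction for GC content and length 4 members were called below 0, and with no filter on low values 0 were called in either direction. The shares of all genes called in those fits are not given here.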

How the results depend on the processing

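Depth, single libraries and the scaling limit these results. Without the factors the member median from CFU-E to Ter119+ erythroblasts was -1.08, with 0 members 2-fold higher and 43 lower (788 and 5618 of 9318 genes). The medians of complexes I, IV and V were -1.15, -0.81 and -1.04. From BFU-E to Ter119+ erythroblasts the member values without the factors were -0.94, 0 and 36 (904 and 6246 of 10080 genes). Complexes I, III, IV and V had medians of -0.93, -0.78, -0.59 and -0.94 there. Without the factors the member median between the sorts was -0.0061, and 1 member was 2-fold lower in CD71 sort water than in BFU-E (1002 of 10108 genes). The correction for GC content and length, added after seeing the data, gave a member median of 0.11 from CFU-E to Ter119+ erythroblasts, a complex II median of 0.12 from BFU-E to CFU-E, 3 members higher and 1 lower in CD71 sort water, 1 member higher with Dex, and 4 below 0 for the product of Dex and sort, which without a filter gave 0 and 0. With the correction and the 4 CD71/CD24a libraries alone, 8 members were higher with Dex and 12 lower. The same 4 libraries gave 1 member higher and 1 lower with DMOG. With single libraries left out, 0 to 4 members were called higher with Dex and 0 to 15 lower, the 4 and 15 without CD71 sort Dex or CD71 sort water, and 1 lower without CD71/CD24a sort Dex+DMOG or CD71/CD24a sort DMOG. DMOG gave 0 to 1 higher and 0 to 1 lower. The sort gave 5 to 18 higher and 18 to 41 lower, with medians of -0.27 to -0.070, and the 5 and 18 came without CD71/CD24a sort Dex, while 7 were higher without CD71/CD24a sort water. The Dex and DMOG interaction could not be fitted with a library left out. Without the replicate block, which here is the term for sort, 0 members and 3 genes were called for Dex, against 193 genes with it; 0 members had an unadjusted p under 0.05. The causes of these changes were not tested. Except where stated, the share of all genes called under these alternatives is not given here. Among the main values 192 of the alternatives kept the direction and the side of the threshold, 19 brought a value past it, 9 lost it, 3 moved by more than the spread and 2 reversed.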
